A study of Mus musculus and blank sample with 768 samples.

Results

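Endothelial cells that were CD45-, CD31+ and GFP- were sorted from mouse lymph nodes, 1 cell to a well, and 74 of their wells were kept and 42 left out, among 592 wells kept of 768 in the whole series. CD45 is a leukocyte surface protein encoded by Ptprc, and CD31 is an endothelial adhesion protein encoded by Pecam1. Members were the wells of pools A, B and C that carry this gate and tissue in the labels and passed 3 limits: 50000 or more reads assigned to genes, 1000 or more detected genes, and no more than 25% of reads from mitochondrial genes. The labels call the GFP+ endothelial cells of the series Csf1r lineage endothelial cells and the lymph node GFPlow cells potential members of that lineage, while the GFP- cells are labelled only as endothelial. Beside the GFP- gate, 77 lymph node GFPlow wells, 98 lymph node GFP+ wells and 84 tumour GFP- endothelial wells were used. No strain, genotype, driver of GFP, treatment, age or animal is given for any of these groups in the sources used here. Each gate therefore counted as 1 sample, no test was run between gates or classes, and no p-value is given.

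A lymph node holds several kinds of endothelium. High endothelial venules are blood vessels whose cells make sulphated sugar ligands for L-selectin and let lymphocytes enter from the blood, and capillaries feed the node. Lymph enters a subcapsular sinus lined by a ceiling and a floor of lymphatic endothelium and drains through the medullary sinuses. In mice, Ackr4, a scavenger receptor for the chemokine CCL21, is known from the sinus ceiling, and Madcam1, an adhesion molecule, from the sinus floor.

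The kept GFP- wells held 69763 to 1971891 reads in genes (median 609244) and a median of 2512.5 genes. Pool A kept 40 of 48 wells, pool B 26 of 36 and pool C 8 of 32. Of the 42 wells left out, 39 had too few genes, 28 too few reads and 12 too many mitochondrial reads. The kept well with the fewest genes had 1064, and the left-out well that missed only the gene minimum by the least had 946. Among the wells left out, at least 10 reads of Ly6c1 were found in 9, of Glycam1 in 5, of Chst4 in 1, of Ackr4 in 1 and of Prox1 in 0. No pair of wells of the gate held identical counts.

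Endothelial markers were found throughout the gate, and the defining genes of several other cell types had 0 reads. Pecam1 had a read in 70 of 74 wells, with a lowest, median and highest level of 0, 1787 and 5667 reads per 1000000 reads in genes (CPM). Of the other marker genes of the gate, Cd34 had a read in 52 wells, Ly6c1 in 44, Ackr4 in 22 and Chst4 in 12, so that none of these was general to it. Every well held between 4 and 11 of 12 pan-endothelial genes at 10 CPM or more, with a median of 9. Ptprc had a read in 1 well, a high endothelial venule-like one, at 134.8 CPM. The macrophage genes Adgre1 and Fcgr1, the T cell gene Cd3e, the B cell gene Cd79a and the pericyte gene Pdgfrb had 0 reads. As whole lists, 6 of 8 macrophage genes had a read and 3 wells held 1 of them at 10 CPM or more, with a summed level of 0 to 278.2 CPM per well. Of 5 haematopoietic genes 3 had a read, and the 5 wells that held 1 at 10 CPM (0 to 258.5 CPM summed per well) were all high endothelial venule-like. Of 5 T cell genes 1 had a read, in 4 wells at 10 CPM (0 to 1061 CPM), and of 4 B cell genes 2, in 2 wells (0 to 221.003 CPM). Of 4 dendritic cell genes 2 had a read, in 22 wells at 10 CPM (0 to 1076 CPM). Of 8 fibroblast or pericyte genes 4 had a read, in 5 wells at 10 CPM (0 to 280.6 CPM), 4 of them sinus floor-like. All 4 platelet genes had a read, in 12 wells at 10 CPM (0 to 330.1 CPM), of which 6 were high endothelial venule-like and 5 sinus floor-like, and Itga2b stands both on this list and on the sinus floor list. No well held an erythroid or epithelial gene at 10 CPM. The part of these genes in the results was not tested.

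The clusters of the gate took all 4 class names that the naming rule offered, 2 of blood vessels and 2 of lymphatic vessels. Wells were clustered without any gene of the marker lists. Each cluster was called blood or lymphatic by the list whose genes, at 10 CPM or more, had the higher mean share of its wells. Its class was chosen likewise: high endothelial venule or capillary for blood, sinus ceiling or sinus floor for lymphatic. No other list could name a class. A name also needed at least 3 listed markers held at 10 CPM or more by at least 30% of the wells. For the ceiling list, Ackr4 in at least 30% of the wells was enough, and the class was called Ackr4+ lymphatic-like. High endothelial venule-like wells numbered 20 of 74 (27.03%, exact 95% interval 17.4 to 38.6%), and capillary-like wells 26 (35.1%, 24.4 to 47.1%). Ackr4+ lymphatic-like wells numbered 22 (29.7%, 19.7 to 41.5%), and sinus floor-like wells 6 (8.11%, 3.03 to 16.8%). Blood-like wells were thus 46 of 74 (62.2%, 50.1 to 73.2%) and lymphatic-like wells 28 (37.8%, 26.8 to 49.9%). The GFP- label therefore covered both lineages and no single vessel type. Gene levels by class describe the clusters and are no test of them. The split between the 2 lymphatic classes depended on the settings. The sinus floor-like share was 0% without pool B, at a lower clustering resolution and with wells thinned to an equal depth. Without pool A, every lymphatic-like well took the sinus floor-like name, at 35.3% of 34 wells, and 64.7% were blood-like. The main clustering called 14 of 26 wells blood-like in pool B and 4 of 8 in pool C. Some wells therefore changed lineage without pool A. Lineage also changed for some wells without pool B, where 29.2% of 48 wells were lymphatic-like. The main clustering called 12 of 40 wells lymphatic-like in pool A and 4 of 8 in pool C. With thinning, 30.99% of 71 wells were lymphatic-like, against 37.8% of 74. Of the lymphatic-like wells, only GFP- wells 16 and 68 lacked the reads for thinning, too few to give that fall. At a higher resolution, 62.2% of wells were still blood-like, with 20.3% high endothelial venule-like and 29.7% capillary-like. Some blood-like wells thus took neither class name there. Median reads were 508342 in the high endothelial venule-like class, 520508 in the capillary-like, 841768 in the Ackr4+ lymphatic-like and 751374 in the sinus floor-like class.

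Lymphatic Prox1 did not meet the blood genes Flt1 and Ly6c1 in any well at 10 CPM or more. Prox1, the transcription factor that sets lymphatic identity, reached 10 CPM in 21 wells. Flt1, a VEGF receptor of blood endothelium, reached it in 42 wells, as did Ly6c1, a surface antigen of blood endothelium, and neither shared a well with Prox1 at that level. Cd34, a sialomucin of blood endothelium, was found more widely and reached 10 CPM in 51 wells, 5 of them with Prox1. Ackr4 and Prox1 were found together in 14 wells, out of 20 with Ackr4 and 21 with Prox1. Chst4, the sulphotransferase that makes the L-selectin ligands of high endothelial venules, reached 10 CPM in 11 wells, none of them with Ackr4.

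**Figure D1:**
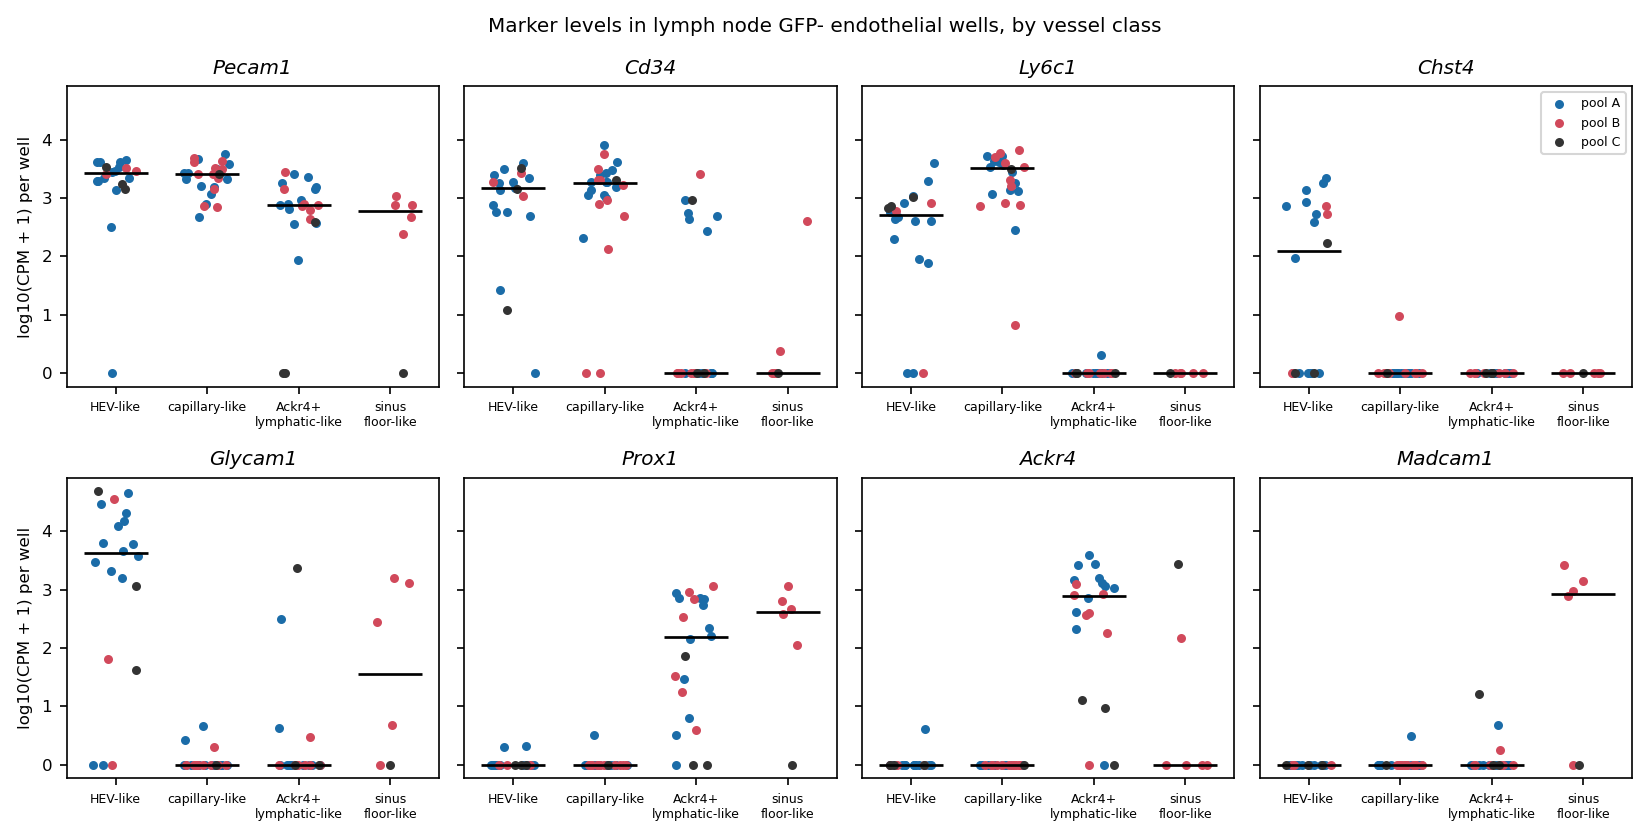
Each point is 1 kept GFP- well, coloured by pool, with its level of 1 gene as log10(CPM + 1) on the vertical axis and its vessel class on the horizontal axis. HEV stands for high endothelial venule, and black lines mark class medians. Chst4 at 10 CPM or more was seen in high endothelial venule-like wells, Ackr4 mainly in Ackr4+ lymphatic-like wells and Madcam1 mainly in sinus floor-like wells.

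The counts of each class differed between pools. Pool A held 14 high endothelial venule-like, 14 capillary-like, 12 Ackr4+ lymphatic-like and 0 sinus floor-like wells, where 0 of 40 allows a share of up to 7.5%. Pool B held 3, 11, 7 and 5 wells in that order, and pool C held 3, 1, 3 and 1. Of the 6 sinus floor-like wells, 5 therefore came from pool B. The high endothelial venule-like share was 35% in pool A (20.6 to 51.7%) and 11.5% in pool B (2.45 to 30.2%), with overlapping intervals. Pool C kept 25% of its wells, fewer than pools A (83.3%) and B (72.2%), and its 8 wells set no share closely. Prox1 was read in 1 of those 8 wells, at 3.67 CPM over the pool, against 155.1 CPM in pool A and 307.7 CPM in pool B. What sets the pools apart is not given in the sources used here, so that the pool and the vessel mix cannot be told apart.

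**Figure D2:**
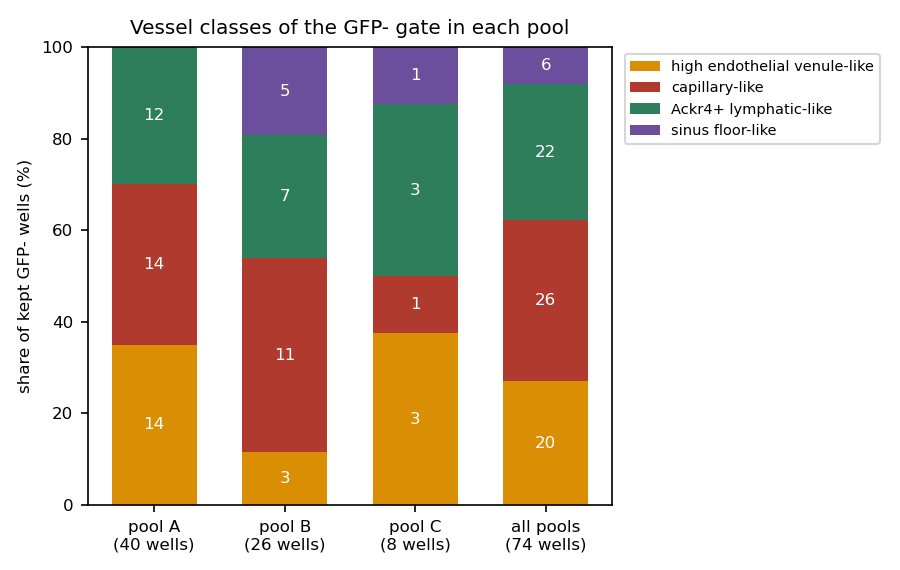
Bars give the share of kept GFP- wells in each vessel class, on a percent axis from 0 to 100, for pools A, B and C and for all pools. Numbers inside the bars are wells. Sinus floor-like wells are seen in pools B and C and not in pool A.

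High endothelial venule-like wells held the machinery of L-selectin ligands. All 7 genes of the high endothelial venule list reached 10 CPM in at least 30% of the 20 wells, and a well held 1 to 7 of them, with a median of 5. Glycam1, a mucin that carries the ligand sugars, had 10850 CPM over the class, with a lowest, median and highest well at 0, 4195 and 48823 CPM. It was read in 17 of 20 wells. The 3 wells without it, GFP- wells 20 and 33 of pool A and 47 of pool B, also had 0 reads of Fut7, Chst4, Ccl21a and Ackr1, and they held the capillary genes Gpihbp1 (916, 355.3 and 632 CPM) and Rgcc (213.5, 496.2 and 2133 CPM). These 3 wells thus lacked the main genes the class is named for. Fut7, the fucosyltransferase of those sugars, had 526 CPM, a read in 14 wells, and 0 reads in all 54 other wells of the gate. Chst4 had 463 CPM and a read in 11 wells, against 3 reads in 1 capillary-like well and 0 reads in both lymphatic classes. All 11 wells with Chst4 at 10 CPM also had Glycam1 at that level, and 10 of them had Fut7. Enpp2, the enzyme that makes lysophosphatidic acid and is known for helping lymphocytes cross these venules, had 4667 CPM in 19 of 20 wells.

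The promoter windows of Chst4 and Glycam1, which were found together in these wells, and of Ackr4, which marks the largest lymphatic class, are printed 5′ to 3′ on the strand of the gene. They run from upstream of the RefSeq transcription start into the gene on build GRCm38.p6. GENCODE places the 5′ ends of Chst4 (110039740) and Ackr4 (104126933) farther upstream, outside these windows. The Chst4 window lies at chr8:110039285-110039584, Glycam1 at chr15:103565032-103565331 and Ackr4 at chr9:104126594-104126893, all on the minus strand. Capitals mark the ETS core GGAA on either strand (TTCC where it lies on the other), the core of the sites of ETS factors, a family with many endothelial members.
Chst4: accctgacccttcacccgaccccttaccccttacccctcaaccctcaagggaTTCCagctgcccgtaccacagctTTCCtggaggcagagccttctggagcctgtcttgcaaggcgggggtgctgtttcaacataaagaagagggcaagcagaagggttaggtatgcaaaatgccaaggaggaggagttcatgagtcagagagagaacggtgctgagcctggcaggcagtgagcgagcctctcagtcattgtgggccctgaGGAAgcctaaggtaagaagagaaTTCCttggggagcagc
Glycam1: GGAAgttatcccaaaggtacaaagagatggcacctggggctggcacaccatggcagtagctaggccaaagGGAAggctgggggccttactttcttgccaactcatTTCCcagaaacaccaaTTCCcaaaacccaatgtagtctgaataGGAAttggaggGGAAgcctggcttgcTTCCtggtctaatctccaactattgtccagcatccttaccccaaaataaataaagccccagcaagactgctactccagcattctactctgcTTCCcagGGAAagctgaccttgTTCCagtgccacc
Ackr4: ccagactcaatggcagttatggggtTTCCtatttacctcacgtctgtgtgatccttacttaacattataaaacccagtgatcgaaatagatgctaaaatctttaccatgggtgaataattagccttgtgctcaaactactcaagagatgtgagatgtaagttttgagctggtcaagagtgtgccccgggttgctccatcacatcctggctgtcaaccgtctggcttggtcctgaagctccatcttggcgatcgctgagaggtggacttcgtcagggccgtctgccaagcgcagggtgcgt
The core was found 4 times in the Chst4 window, 10 times in the Glycam1 window and 1 time in the Ackr4 window, and 96.0% of 32851 RefSeq promoters of the same 300 bases hold it. An AP-1 match, TGANTCA on either strand, was found 1 time in the Chst4 window and in 7.81% of all promoters. The TATA box letters TATAAA, searched on both strands, were found 1 time in the Ackr4 window and in 13.6% of all promoters. These matches are letters in a window and not measured binding.

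The same class carried chemokine, venous and antigen presentation genes. Ccl21a, a chemokine that guides T cells and dendritic cells, had 18188 CPM and a read in 14 of 20 wells, 1 read in the capillary-like class and 0 reads in both lymphatic classes. Its near-identical copies Ccl21b, Gm10591 and Gm13304 had 9, 9 and 88 reads, all in this class, and reads can be split between such copies. Wells ranged from 0 to 139988 CPM of Ccl21a, with a median of 1204. Ccl21a stands on the lymphatic list, which summed to 18362.5 CPM in this class and 2246 CPM in the Ackr4+ lymphatic-like class. Ackr1, the chemokine-binding receptor of venules, had 439 CPM in 13 wells, Selp (P-selectin) 64.6 CPM in 11 and Vwf 316.2 CPM in 11, while Sele (E-selectin) had 0 reads. Of 8 venous genes, 6 reached 10 CPM in at least 30% of the wells. Cd74, the invariant chain of MHC class II, had 2653 CPM in 18 of 20 wells, against 118.6 CPM in the capillary-like, 99.05 CPM in the Ackr4+ lymphatic-like and 1098 CPM in the sinus floor-like class. Outside the lists, Ubd, a ubiquitin-like protein, led the class together with Ccl21a: it had 2572 CPM in 18 wells. Icam1, the leukocyte integrin ligand, had 1017 CPM in 19 wells.

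Capillary-like wells held the blood list most fully. Each of the 26 wells had 6 to 10 of its 10 genes at 10 CPM or more, with a median of 9, against a median of 7 in the high endothelial venule-like class. Ly6c1, at chr15:75044018-75048830 on GRCm38, had 2813 CPM and a read in every well, against 718 CPM in 17 of 20 high endothelial venule-like wells. Its paralog Ly6c2 had 13 reads over the whole gate. Cd34 did not separate the 2 blood classes: it had 1804 CPM in 24 capillary-like wells and 1800 CPM in 19 high endothelial venule-like wells. Sox17, a transcription factor of blood endothelium, had 883 CPM in 18 wells, against 31.1 CPM in 3 high endothelial venule-like wells.

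All 5 genes of the capillary list reached 10 CPM in at least 30% of these wells. Rgcc had 1914 CPM in 22 of 26 wells, Gpihbp1, which anchors lipoprotein lipase on the capillary wall, 573 CPM in 17, and Car4 158.8 CPM in 8. Cxcl12, a chemokine of the CXCR4 axis, had 8161 CPM in 25 of 26 wells, with a lowest, median and highest well at 0, 5154 and 24248 CPM, against 718 CPM in 8 high endothelial venule-like wells and 0 reads in Ackr4+ lymphatic-like wells. Of those 8 wells, the highest were GFP- wells 20, 33 and 47, at 2905, 3816 and 5071 CPM of Cxcl12, the 3 wells that had no Glycam1. The others had 2.04 to 1065 CPM, and the remaining 12 wells of the class had none. No gene of the capillary list was among the 10 leading genes of the class. Those were led by Col13a1, a transmembrane collagen, at 729 CPM in 19 wells and held Esm1, which the tip cell list also names, at 350.996 CPM in 15 wells. Apln, a defining tip cell gene, had 0 reads in the gate.

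A few wells in the blood classes held arterial or venous genes together. GFP- well 35, of pool A, had 8 of 9 arterial genes at 10 CPM or more, among them Gja5, Bmx and Dll4, and GFP- well 73, of pool C, had 5. Both were capillary-like. GFP- well 64, of pool B, was capillary-like with 5 of 8 venous genes, including the only Sele reads of the gate. GFP- wells 4 and 6, both high endothelial venule-like wells of pool A, had 6 of 8 venous genes.

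Ackr4+ lymphatic-like wells held lymphatic genes together with chemokine scavengers. Prox1, at chr1:190118035-190170714 on GRCm38, had 407 CPM in 19 of 22 wells, with a lowest, median and highest well at 0, 151.5 and 1136 CPM. Mmrn1, a secreted lymphatic glycoprotein, had 939 CPM in 19 wells and Stab2, a hyaluronan scavenger receptor of sinus endothelium, 1389 CPM in 17. Ackr4 had 926 CPM in 19 wells, with a lowest, median and highest well at 0, 776 and 3896 CPM, against 1 read in the high endothelial venule-like and 0 in the capillary-like class. Ackr3, a scavenger of CXCL12, had 593 CPM in 16 wells and Ackr2, a scavenger of inflammatory chemokines, 280 CPM in 9. Il7, a survival factor for T cells, had 138.95 CPM in 10 wells. Spns2, the exporter of sphingosine 1-phosphate, had 239.1 CPM in 14 wells, against 52.3 CPM in 8 high endothelial venule-like wells.

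The class also met the 3-marker rule for the sinus ceiling list: 3 of its 4 genes, Ackr4, Bmp4 and Cav1, reached 10 CPM in at least 30% of the wells. At least 2 ceiling genes were held by 16 of 22 wells, against 0 of 20 high endothelial venule-like, 2 of 26 capillary-like and 1 of 6 sinus floor-like wells. Of the lymphatic valve list, which could not name a class, 4 of 6 genes also reached 10 CPM in at least 30% of the wells. The mean share of wells was 32.6% over the valve genes and 48.9% over the ceiling genes. Among the 22 wells, 2 held 5 of the 6 valve genes. The class name used here rests on the lymphatic list and Ackr4 and was settled after the clusters were seen. Bmp4 had 132.4 CPM in 7 wells. Cav1 was not particular to the class: it was read in 18 of 22 wells at 1380 CPM, in 22 of 26 capillary-like wells at 1550 CPM and in 19 of 20 high endothelial venule-like wells at 1237 CPM. Npnt had 0 reads in this class and 23 reads in 1 capillary-like well. Cd36, a fatty acid receptor listed for capillaries, was highest here: it had 3492 CPM in 20 of 22 wells, against 939 CPM in 13 of 26 capillary-like wells and 0 reads in the high endothelial venule-like class. Cldn5, a tight junction protein, had 4573 CPM in 21 wells, against 391 CPM in 7 capillary-like and 187.1 CPM in 5 high endothelial venule-like wells. The genes that led the class were Lbp, the lipopolysaccharide-binding protein, at 816 CPM in 17 wells, and Pkhd1l1 at 288.1 CPM in 11 wells with 0 reads in the rest of the gate. Of the medullary sinus list, Marco, Clec4g and Ptx3 had 0 reads in the gate.

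Sinus floor-like wells were few. Madcam1 had 1402, 2652, 932, 0 and 774 CPM in the 5 pool B wells and 0 CPM in the pool C well. Csf1, the growth factor of macrophages, had 1013, 1239, 1529, 1621 and 634 CPM in the pool B wells and 6.33 CPM in the pool C well. The pool B wells were thus alike in Csf1 and the pool C well stood apart. That well, GFP- well 72, had 2732 CPM of Ackr4, 3005 CPM of Cd36 and 1118 CPM of Gdf10, and neither Prox1 nor Pecam1. It held most of the Ackr4 (224.6 CPM) that the class showed, since the only other reads came from 1 pool B well at 147.04 CPM. The reverse was seen in GFP- well 70, also of pool C and in the Ackr4+ class, which had 0 reads of Ackr4, 972 CPM of Bmp2, 1414 CPM of Csf1 and 2374 CPM of Glycam1. Glycam1 was read in 4 of 6 sinus floor-like wells at 548 CPM over the class, so it was not limited to high endothelial venule-like wells.

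**Figure D3:**
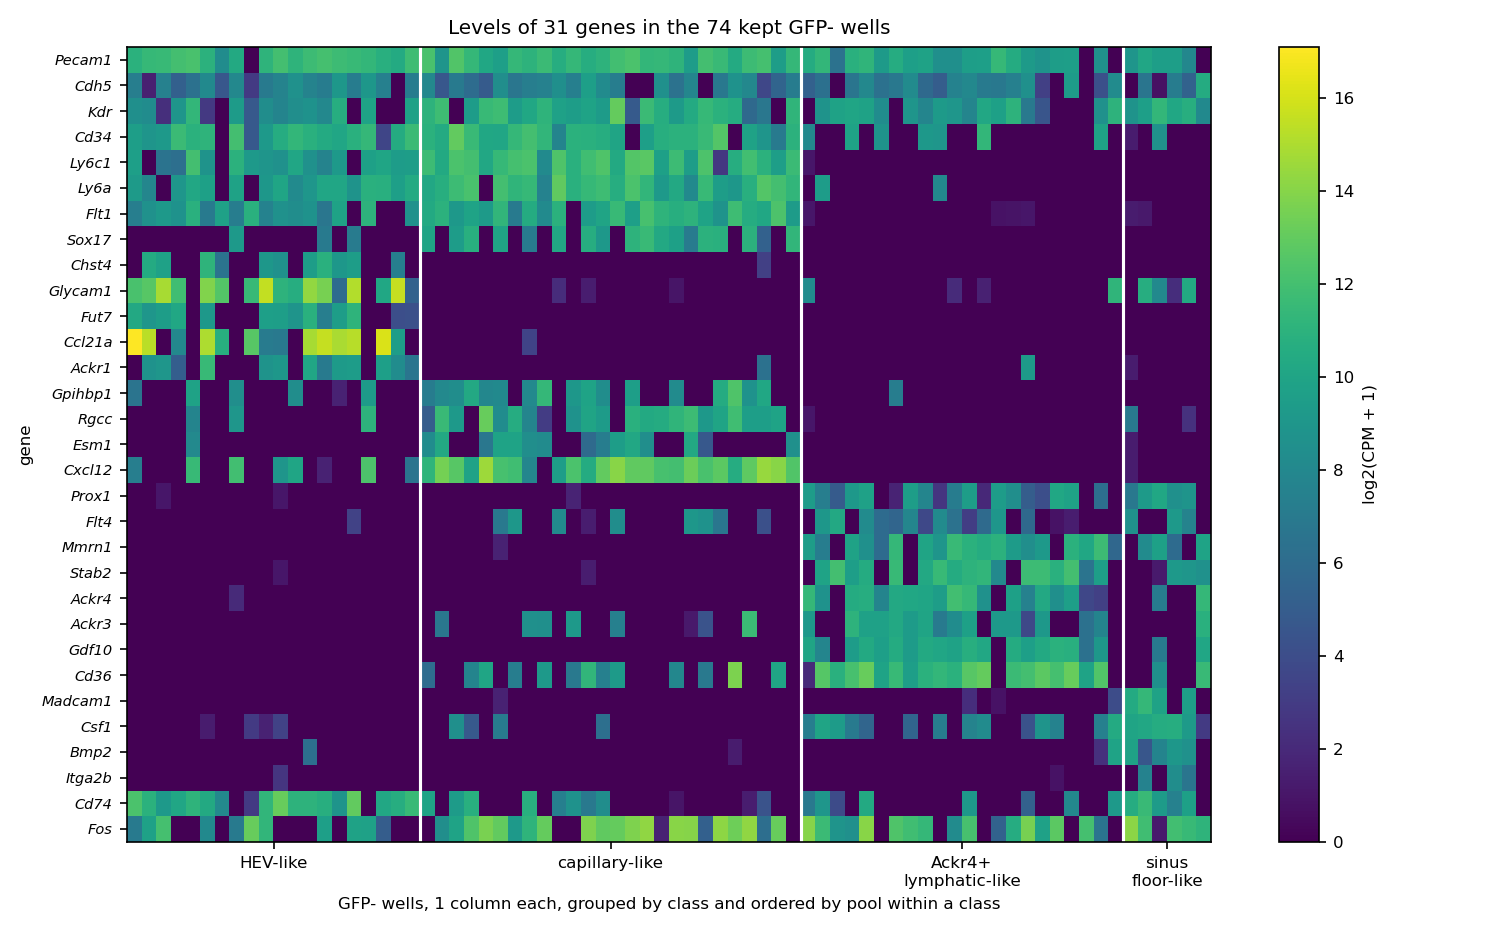
Each column is 1 kept GFP- well, grouped by class and ordered by pool within a class, and each row is 1 gene, with colour giving log2(CPM + 1). Blood genes fill the 2 left blocks and lymphatic genes the 2 right blocks. The last column of the Ackr4+ block and the last of the sinus floor-like block are GFP- wells 70 and 72.

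These shares were also taken at an equal depth. With each well thinned to 100000 reads, 71 of the 74 wells had enough reads, and Chst4 was read in 55% of high endothelial venule-like wells, against 55% without thinning. The thinned share was 90% for Ackr4 in Ackr4+ lymphatic-like wells, against 86.4%, and 96.0% for Ly6c1 in capillary-like wells, against 100%. These pairs rest on different wells, since thinning left out GFP- well 2 of the capillary-like class and GFP- wells 16 and 68 of the Ackr4+ class. Ackr4 stood at 0 CPM in well 16 and 11.7 CPM in well 68.

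Stress, cell cycle and stray markers also differed between classes. The summed level of the 10 dissociation stress genes had a median of 23972 CPM per well in the capillary-like class (0 to 61086), 6210 in the Ackr4+ lymphatic-like (280 to 36392), 9396 in the sinus floor-like (1.34 to 33479) and 1885 in the high endothelial venule-like class (0 to 15806). Fos had 8361, 3973, 4399 and 773 CPM in these classes in the same order. The part of this in the clusters was not tested. GFP- well 23, an Ackr4+ lymphatic-like well of pool A, was the only one with 6 of 8 proliferation genes at 10 CPM. Zbtb46, from the dendritic cell list but also known in endothelium, had 557 CPM in 4 of 6 sinus floor-like wells, while Flt3 and Itgax had 0 reads, and Lck, from the T cell list, had 73.5 CPM in 4 of 22 Ackr4+ lymphatic-like wells.

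Clustering all lymph node and blood wells together asked whether these vessel classes recur in the other gates. The 3 joint clusters that were mostly GFP-, named high endothelial venule-like, capillary-like and Ackr4+ lymphatic-like by the same rule, held 67 of 74 GFP-, 5 of 77 GFPlow and 0 of 98 GFP+ wells. They were picked for being mostly GFP-, so that the direction of this difference follows from the choice and the counts are a description. The other 7 GFP- wells lay in sinus floor-like clusters that also held GFP+ and GFPlow wells. Among these 7 were the 5 sinus floor-like wells of pool B and 2 Ackr4+ class wells of pool C, GFP- wells 68 and 70. Well 68 was shallow, with 85793 reads. GFP- well 72 joined the Ackr4+ lymphatic-like cluster instead, so that wells 70 and 72 changed places. Many GFPlow wells came from pool D, which held no GFP- well. Median reads per well were 609244 in the GFP-, 1246860 in the GFPlow and 941920 in the GFP+ gate. GFP- wells 20, 33 and 47, the high endothelial venule-like wells without Glycam1, moved to the capillary-like joint cluster, which held no well of another gate. Cd34, read in 52 of 74 GFP- wells, was read in 5 of 77 GFPlow wells at 139.1 CPM and in 3 of 98 GFP+ wells at 0.64 CPM.

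**Figure D4:**
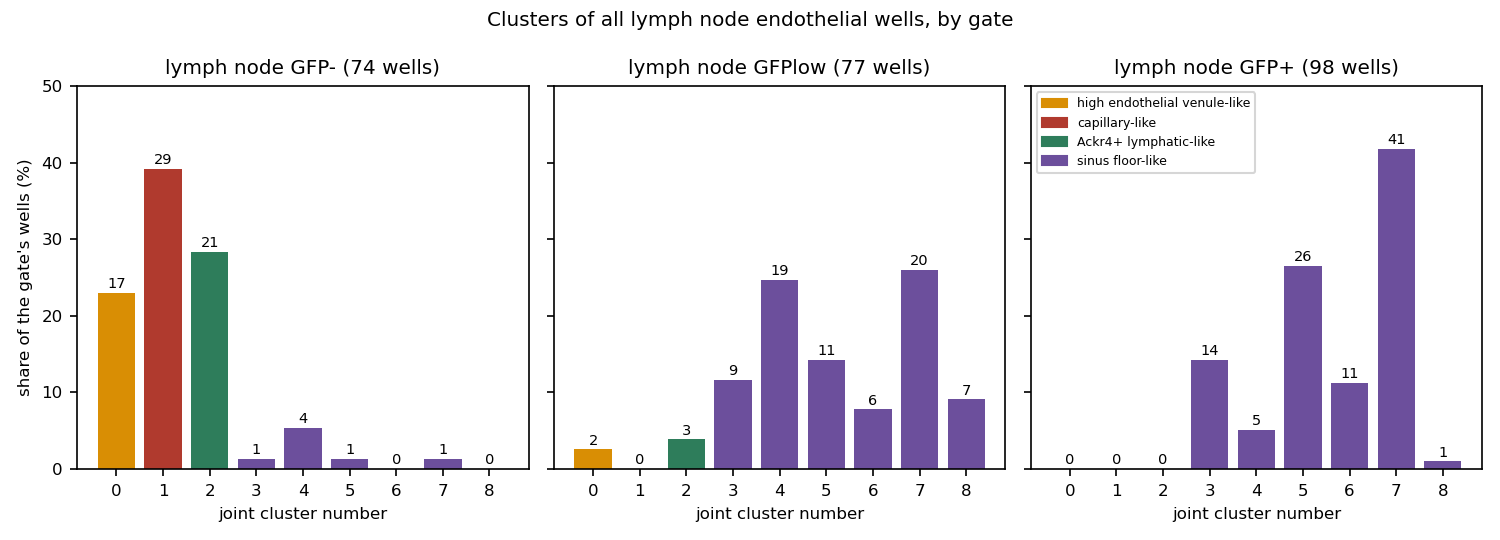
Bars give the share of each gate's kept wells, in percent, in each cluster of all lymph node endothelial wells, coloured by the class the cluster was named. Numbers above bars are wells. Clusters 0, 1 and 2 hold 67 GFP-, 5 GFPlow and 0 GFP+ wells.

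Set against the GFP+ gate of the same pools, the GFP- gate was higher in every blood gene and lower in every sinus floor gene. A gene was called when it was at least 2-fold apart by summed reads and by mean CPM, in the same direction in every pool. Of 11140 genes measured, 6.86% were called higher and 11.9% lower in GFP-, and the median log2 ratio of all was -0.04. All 10 blood genes were called higher, with a median log2 ratio of 8.57, taken after adding 1 CPM to both levels, or 9.19 with genes at 0 set to their bound. All 6 sinus floor genes were called lower, with a median of -3.89. The summed level of a gate depends on how many wells of each class it holds as well as on the level per well. All 5 capillary genes were measured, and only Cd36 was called higher, although Gpihbp1 had 198.5 CPM in GFP- and 0.02 CPM in GFP+ wells. Gpihbp1 and Rgcc had no read in any GFP- well of pool C, which held 1 capillary-like well. They could therefore not meet the rule of the same direction in every pool. Pan-endothelial genes were called higher in 9 of 12 with a median of 1.504, and high endothelial venule genes in 4 of 7 with a median of 1.399, which was 3.33 without pool B. Of 10 lymphatic genes measured, 3 were called higher and 3 lower, with a median of -0.29, or 0.01 with no filter on low genes. That list includes Ccl21a, read in the GFP- gate almost only in high endothelial venule-like wells. The 9 interferon and 10 stress genes measured had 0 calls in either direction, with medians of 0.51 and 0.85.

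The genes farthest apart came from different vessel classes. Ly6c1 had 990 CPM in GFP- wells and 0 reads in GFP+ wells, at least 31369-fold higher against a floor of 3 reads over the GFP+ gate. Aqp1, a water channel, had 883 CPM in GFP- wells and 0.02 CPM in GFP+ wells; within the gate it was highest in high endothelial venule-like wells, at 1943 CPM. Nrp1, a co-receptor for VEGF and semaphorins, had 619 CPM in GFP- and 0.01 CPM in GFP+ wells, and was read in all 26 capillary-like wells. Cd36 had 1545 CPM in GFP- and 0.06 CPM in GFP+ wells, and Gdf10, a ligand of the TGF-beta family, 369.2 CPM in GFP- and 0.01 CPM in GFP+ wells. Gdf10 came from lymphatic wells: it had 1004 CPM in 19 of 22 Ackr4+ lymphatic-like wells and 0 reads in both blood classes. Tinagl1, a matrix protein, spanned lineages, with 403 CPM in GFP- wells (332.8 CPM in the high endothelial venule-like, 542 in the capillary-like and 455 in the Ackr4+ class) and 0 reads in GFP+ wells, at least 12772-fold higher.

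Among the genes lowest in GFP- wells were genes of the sinus floor and of sinus endothelium. Clec4g, a lectin of sinus endothelium, had 0 reads in GFP- and 330.8 CPM in GFP+ wells, at least 5259-fold lower. Itga2b, an integrin listed for the sinus floor and for platelets, had 10.4 CPM in GFP- and 617 CPM in GFP+ wells, and Postn, a matrix protein, 46.7 CPM in GFP- and 2690 CPM in GFP+ wells. Madcam1 had 106.6 CPM in GFP- and 1580 CPM in GFP+ wells, with log2 ratios of -10.44 in pool A, -2.85 in pool B and -9.47 in pool C. Csf1r, the gene that names the lineage of the GFP+ gate, had 0.13 CPM in 3 of 74 GFP- wells and 3.48 CPM in 39 of 98 GFP+ wells and was called lower. Rgs5, from the pericyte list, had 8.95 CPM in 3 GFP- wells and 265.25 CPM in 49 GFP+ wells, and its part in the difference between gates was not tested. The smallest gap in Madcam1 was in pool B, which holds 5 of the 6 sinus floor-like wells. Glycam1 and Prox1, which mark classes within the gate, were not called: Glycam1 had 2859 CPM in GFP- and 2674 CPM in GFP+ wells (log2 ratio 0.10), where it was read in 93 of 98 wells, and Prox1 had 206.01 CPM in GFP- and 310.99 CPM in GFP+ wells (-0.59).

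**Figure D5:**
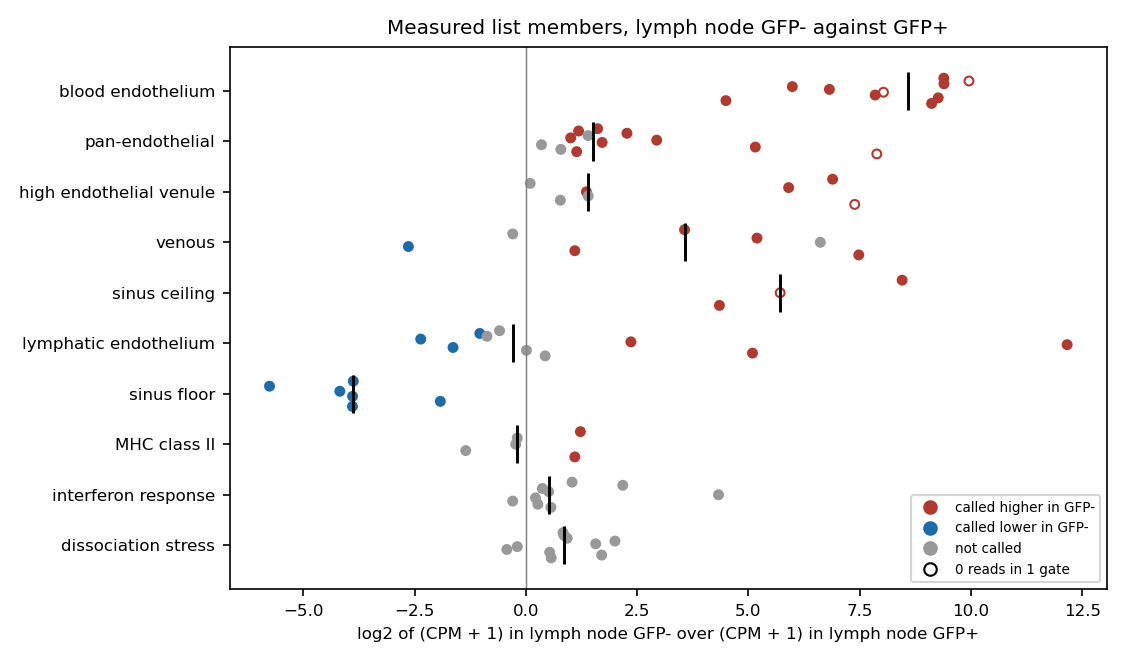
Each point is 1 measured gene of a list, placed by its log2 ratio of CPM + 1 in lymph node GFP- over lymph node GFP+ wells, with black lines at list medians. Open points have 0 reads in 1 gate, and colours give the call. Blood genes lie right of 0 and sinus floor genes left of it, with medians of 8.57 and -3.89.

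Set against GFP- endothelial cells of tumours, the blood list had a median near even, and most high endothelial venule and lymphatic genes were called higher in the node. The summed node level also depends on the mix of classes, with 46 of 74 wells blood-like. These wells are from another table and plate, so that tissue and plate cannot be told apart, and no pool rule applied. Of 11454 genes measured, 17.7% were called higher and 21.5% lower in lymph node GFP- wells. Of 10 blood genes, Nrp1 was called higher and Adgrl4, an adhesion receptor, lower, with a median log2 ratio of -0.39. Of 7 high endothelial venule genes, 5 were called higher and B3gnt3, a sugar transferase, lower, with a median of 5.93 (4.70 without pool A, 9.23 with a pseudocount of 0.1 CPM), or 10.59 with genes at 0 set to their bound. Glycam1 had 2859 CPM in lymph node wells and 0 reads in tumour wells, at least 73744-fold higher, and Fut7 and Chst4 also had 0 reads in tumour wells. Of 10 lymphatic genes measured, 6 were called higher, with a median of 4.00. The lymphatic list includes Ccl21a, which in the node gate was read almost only in high endothelial venule-like wells. Prox1 had 206.01 CPM in lymph node wells and 0 reads in 84 tumour wells, and Ackr4 352.6 CPM in lymph node and 0 reads in tumour wells.

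All 5 MHC class II genes were called higher in lymph node wells, with a median log2 ratio of 3.19, and 7 of 9 interferon genes, with a median of 2.21. Of 10 stress genes, 9 were also called higher, with a median of 2.18. Of the genes of dividing and sprouting cells, 6 of 8 proliferation genes (median -1.71) and 5 of 6 tip cell genes (median -3.73) were called lower. Igfbp5, which binds insulin-like growth factors, had 0 reads in lymph node wells and 340 CPM in tumour wells. Apln, the apelin ligand of sprouting vessels, had 0 reads in lymph node wells and 403 CPM in 40 of 84 tumour wells, at least 6398-fold lower.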

How the data were processed

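Cells were sorted singly into plates and their cDNA amplified by a modified SMART-seq2 method, per the labels' protocols, which name no molecular identifiers. Counts of reads, not normalized, are what the authors deposited for each gene and well, on mm10. Subread (1.4.6-p2), STAR (2.4.1b) and FastQC (0.11.4) are listed in the submitters' processing notes, with roles not given in the sources used here. Rows sharing a symbol (92) were summed, leaving 51734 symbols.

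Levels are CPM of reads summed over wells. Shares carry exact Clopper-Pearson intervals at 95%, and a share of 0 a limit of 3 wells. Reads are not molecules, so intervals and floors cover counting error only. Wells were clustered with scanpy 1.11.5 and leidenalg 0.10.2 on 2000 variable genes, 20 principal components, 15 neighbours and resolution 1, without the 181 genes of 28 lists. A cluster took the class whose list had the higher mean share of wells, and needed at least 3 markers of that list. The Ackr4+ class rests on the lymphatic list and Ackr4, a rule settled after the clusters were seen. No doublet caller was run, since each well was sorted as 1 cell.

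Ratios are on the log2 scale after a pseudocount of 1 CPM. Measured genes reached 1 CPM and had reads in 5% of the wells of a gate. Pools entered the pool rule with 5 or more wells of both gates. Genes named between gates came from the 10 highest and the 10 lowest ratios among called genes that reached 20 CPM and 25% of wells in the higher gate, and from the lists. Single wells and genes named for a vessel class were chosen after their values were seen. Members and lists were chosen with earlier results of these data known. The ratio and clustering steps were tested on simulated data, where the clustering misplaced a few simulated wells. Alternatives were other cell filters, resolutions, thinning, pseudocounts and gene filters, TMM factors (edgeR 4.0.16) and each pool left out. 2 GFPlow wells whose organism label reads blank were not grouped.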

Additional observations from a re-analysis of the deposited data

How the results depend on the processing

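Of the values recomputed under alternatives, 14 moved beyond the interval of the reported share or list median, or beyond 1.5 times a count, and 180 did not. The intervals of list medians are wide, so some of the 180 still shifted. The blood-like share stayed between 53.1 and 70.8%, the lymphatic-like share between 29.2 and 46.9%, the high endothelial venule-like between 20.3 and 31.3% and the capillary-like between 26.5 and 44.1%. At Leiden resolution 2 the blood-like share was 62.2%, with 20.3% high endothelial venule-like and 29.7% capillary-like, so some blood-like wells took neither name. The split of the lymphatic wells did not hold. Without pool A, the Ackr4+ lymphatic-like share was 0% and the sinus floor-like share 35.3%, which was every lymphatic-like well. The blood-like share was then 64.7% of 34 wells. The main clustering called 14 of 26 wells of pool B and 4 of 8 of pool C blood-like. Some wells therefore changed between blood-like and lymphatic-like. The sinus floor-like share was 0% without pool B, at Leiden resolution 0.5 and with wells thinned to 100000 reads. Without pool B, 29.2% of 48 wells were lymphatic-like. The main clustering called 12 of 40 wells of pool A and 4 of 8 of pool C lymphatic-like. With thinning, 30.99% of 71 wells were lymphatic-like, and GFP- wells 16 and 68 were the only lymphatic-like wells left out. Some wells thus changed lineage under these settings too. Against GFP+ wells, genes called higher in GFP- numbered 764, against 1432 with the stricter cell filter, 1252 without pool A, 1543 without pool C and 465 with the higher filter on low genes. Genes called lower numbered 1327, against 2067 without pool A and 562 with the higher filter. The rule asks for 1 direction in every pool used, so leaving a pool out removes a condition. The median log2 ratio of the blood list was 10.34 with a pseudocount of 0.1 CPM and 6.68 with 5 CPM. That of the high endothelial venule list was 3.33 without pool B and 2.10 by mean CPM, and that of the lymphatic list 0.01 with no filter on low genes. Against tumour wells, 760 genes were called higher and 1453 lower with the higher filter, which tests fewer genes. The high endothelial venule median was 4.70 without pool A, 6.55 without pool B, 9.23 and 4.63 with pseudocounts of 0.1 and 5 CPM and 4.89 with the higher filter, and the lymphatic median 2.86 with a pseudocount of 5 CPM. No paired analysis was possible because the results come from no test and the labels tie no well number to an animal. Ratios within each shared pool entered the call rule. Depth limits low genes: a gene without a read in a well may still be expressed there.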

Other observations

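Sex-linked genes differed between wells of 1 pool. In pool B, 4 of 26 GFP- wells had at least 10 reads of Xist, the RNA that silences an X chromosome in female cells, and 7 had at least 10 reads over the Y genes Ddx3y, Kdm5d, Eif2s3y and Uty, with 0 wells holding both. In pool A, 0 of 40 wells reached that level for Xist and 18 did for the Y genes. In pool C, 0 of 8 wells did for Xist and 5 for the Y genes. Each well was 1 sorted cell.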
